A study of Bos taurus with 9 samples.

Results

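The 10 genes described here are linked to ADP-ribosylation, to nuclear bodies or to intracellular antiviral defence, and all are known as interferon-responsive in other mammals. They were chosen with earlier results of these data known, and taken by symbol from a table of 30641 bovine genes. All 10 symbols were present. They are the PARP family genes PARP9, PARP10, PARP12, PARP14 and ZC3HAV1, the PARP9 partner DTX3L, the nuclear body genes PML and SP100, the antibody receptor and ubiquitin ligase TRIM21, and the helicase ZNFX1. RNA was sequenced from bovine cells that the labels call endometrial epithelial, as 9 libraries of 3 groups with 3 libraries each. At 24 hours after seeding, the DPPA3 mRNA group received jetMESSENGER, a transfection reagent, carrying 500 ng of in vitro made mRNA for DPPA3, a germline and early embryo protein. The reagent alone group received jetMESSENGER with no RNA at the same time, and the untreated control group received neither. No group received another mRNA, so the DPPA3 message and transfected RNA as such cannot be told apart. Nothing states that the replicates came from separate cultures or donors. The p-values therefore reflect the spread between these libraries alone, which may be technical.

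PARP enzymes transfer ADP-ribose from NAD+ to proteins or nucleic acids. Type I interferon, which cells make on sensing foreign RNA, acts through transcription factors such as STAT2 and IRF9 on a large set of antiviral genes that includes several PARP genes, PML and TRIM21. In the ruminant uterus the same pathway answers interferon tau, the pregnancy recognition signal of the early embryo. PML and SP100 proteins build nuclear bodies, SUMO-rich structures that restrict viruses in the nucleus.

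The libraries held 11070923 to 13258036 counts in the DPPA3 mRNA group, 3890134 to 12092771 in the reagent alone group and 7258348 to 10130619 in the untreated control group. DPPA3 itself measured 9526, 19312 and 18096 CPM (counts scaled to a common library size, with TMM factors) in DPPA3 mRNA replicates 1, 2 and 3, had 0 counts in each reagent alone library and had 0, 2 and 1 counts in the untreated libraries. Of 10 epithelial markers, KRT8 (3802 to 4995 CPM), KRT18 and KRT19 were abundant in every library, whereas GRHL2 had 0 counts and EPCAM, CLDN4 and ESRP1 stayed under 2 CPM. Of 10 stromal markers, COL1A1 (8085 to 18918 CPM), COL1A2, COL3A1 and VIM were abundant too, whereas THY1 (0.181 to 1.29 CPM), TWIST1 (1.99 to 10.6 CPM) and PDGFRB (6.41 to 17.2 CPM) were low, so the markers only partly bear out the epithelial label. Of 10 immune markers, PTPRC, CD2, ITGAM and MS4A1 had 0 counts in all 9 libraries, and the list overlapped between groups, summing to 7.01 to 9.68 CPM with DPPA3 mRNA, 8.22 to 9.88 CPM with reagent alone and 6.45 to 9.53 CPM in untreated cells.

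With DPPA3 mRNA, the average level of each of the 9 genes that had counts lay above its average with reagent alone, with a fitted fold of 1.25 for ZC3HAV1 to 5.36 for DTX3L. The size of the difference varied between the transfected libraries. Replicate 2 lay at 1.74 to 12.5 times the mean of reagent alone, with a median over the 9 genes of 5.10. Replicate 3 lay at 1.13 to 2.54 times that mean (median 1.77), and replicate 1 at 0.826 to 1.25 times (median 1.06). DPPA3 mRNA was nearly as abundant in replicate 3 as in replicate 2 and lowest in replicate 1, and its part in these differences was not tested. In bulk RNA, more cells that express a gene and more RNA per cell cannot be told apart.

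**Figure D1:**
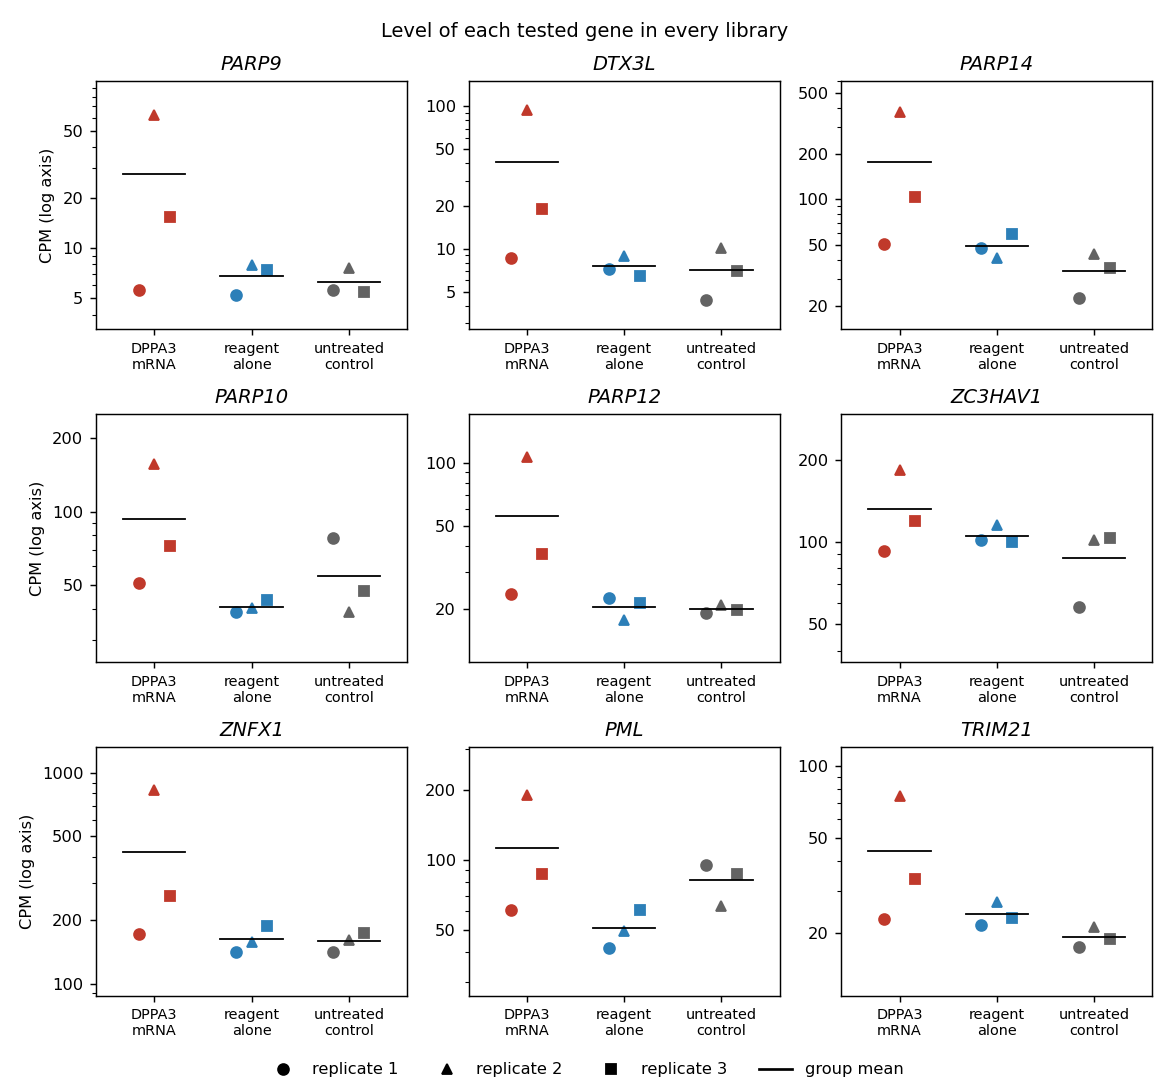
CPM of the 9 genes with counts (log axis) in each library of the DPPA3 mRNA, reagent alone and untreated control groups, 3 libraries per group. Symbols mark the replicate number and black lines the group mean. DPPA3 mRNA replicate 2 is the highest of the 9 libraries for all 9 genes, as for PARP14 at 375 CPM.

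PARP9 and DTX3L encode partner proteins. PARP9 is a macrodomain protein that binds DTX3L, a ubiquitin ligase of the Deltex family, and the human complex acts in DNA damage and interferon responses. In the RefSeq table of the assembly ARS-UCD2.0 their spans overlap and PARP14 is the next gene after them, so these 3 members are neighbours. In DPPA3 mRNA replicates 1, 2 and 3, in that sequence throughout, PARP9 stood at 5.66, 62.1 and 15.4 CPM, against 5.23, 7.90 and 7.41 CPM with reagent alone and 5.64, 7.58 and 5.48 CPM in untreated cells. Replicate 1 of the transfected cells thus lay inside the range of both other groups, and replicates 2 and 3 above it. The log2 fold change over reagent alone was 1.98 (SE 0.62, unadjusted p 0.0068, edgeR quasi-likelihood test).

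DTX3L measured 8.67, 94.3 and 19.2 CPM with DPPA3 mRNA, against 7.22, 8.98 and 6.46 CPM with reagent alone and 4.35, 10.1 and 7.04 CPM in untreated cells. It showed the same layout as PARP9, with transfected replicate 1 inside both other ranges. Its log2 fold change over reagent alone was 2.42 (SE 0.66, unadjusted p 0.0028), the largest of the 9 genes. Replicate 2 exceeded replicate 1 by 11.0 times for PARP9 and by 10.9 times for DTX3L. The strand setting of the counting is not given, so how reads from the stretch that both spans share were assigned is not known. The reagent alone library with the fewest counts held 21 counts of PARP9 and 29 of DTX3L, so these levels carry more counting error than those of the other members.

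PARP14 encodes a large macrodomain protein that adds single ADP-ribose units and was described as a STAT6 coactivator in the mouse. It measured 51.2, 375 and 105 CPM with DPPA3 mRNA, against 48.1, 41.4 and 59.6 CPM with reagent alone and 22.4, 44.0 and 35.4 CPM in untreated cells. Every transfected library lay above every untreated library, but replicate 1 lay inside the reagent alone range. Its log2 fold change was 1.83 over reagent alone (SE 0.53) and 2.38 over untreated control (SE 0.54). The span of PARP14 overlaps that of HSPBAP1, so its reads carry the same limit of unstated strand.

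PARP10, a partner of the MYC protein in human cells, and PARP12 are further mono-ADP-ribosyltransferases. PARP12, which has zinc fingers and inhibits translation and virus growth in human cells, measured 23.5, 107 and 36.4 CPM with DPPA3 mRNA. It measured 22.4, 17.7 and 21.3 CPM with reagent alone and 19.2, 20.9 and 19.7 CPM in untreated cells. All 3 transfected libraries lay above all 6 others, replicate 1 by a narrow margin, and the log2 fold change over reagent alone was 1.44 (SE 0.42). The 6 libraries without mRNA lay close together for this gene, with a standard deviation of 2.47 CPM in the reagent alone group and 0.887 CPM in the untreated group.

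PARP10 measured 51.3, 156 and 72.7 CPM with DPPA3 mRNA, against 38.8, 40.3 and 43.7 CPM with reagent alone and 78.3, 38.8 and 47.5 CPM in untreated cells. The transfected libraries did not overlap those with reagent alone, whereas untreated replicate 1 lay above transfected replicates 1 and 3. The log2 fold change was 1.19 over reagent alone (SE 0.35) and 0.77 over untreated control (SE 0.35).

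ZC3HAV1 encodes the zinc finger antiviral protein, also called PARP13, which binds CpG-rich viral RNA and lacks transferase activity. It measured 93.0, 183 and 119 CPM with DPPA3 mRNA, against 101, 116 and 99.6 CPM with reagent alone and 58.0, 101 and 103 CPM in untreated cells. Transfected replicate 1 was below every reagent alone library, and replicate 3 was just above their highest. Its log2 fold change over reagent alone, 0.32 (SE 0.25, unadjusted p 0.23), was the smallest of the 9 genes. Without DPPA3 mRNA replicate 2 it was 0.0077.

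ZNFX1 encodes an RNA helicase with NFX1-type zinc fingers that has been described as a sensor of double-stranded RNA in mouse cells. It measured 171, 828 and 260.5 CPM with DPPA3 mRNA, against 141, 158 and 187 CPM with reagent alone and 142, 161 and 174 CPM in untreated cells. Replicates 2 and 3 of the transfected cells lay above all 6 other libraries, and replicate 1 lay within both ranges. Its log2 fold change over reagent alone was 1.37 (SE 0.42).

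PML encodes the scaffold of the nuclear bodies. It measured 60.8, 190.1 and 86.5 CPM with DPPA3 mRNA, against 41.8, 49.6 and 60.7 CPM with reagent alone and 95.2, 63.5 and 87.1 CPM in untreated cells. The transfected libraries all lay above those with reagent alone, though replicate 1 nearly met the highest of them. Against untreated cells the picture differed, since replicate 1 lay below all 3 libraries and replicate 3 below 2 of them. The log2 fold change was 1.14 over reagent alone (SE 0.33) and 0.46 over untreated control (SE 0.33). Without DPPA3 mRNA replicate 2 the value over untreated control turned to -0.15.

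SP100, the other nuclear body gene, had 0 counts in all 9 libraries. A count of 0 allows up to 3 counts per library, or 0.226 to 0.271 CPM with DPPA3 mRNA, 0.236 to 0.747 CPM with reagent alone and 0.293 to 0.483 CPM in untreated cells. These limits cover counting error only, and hold only for reads that the gene model used for counting could take up. That model is not given, so the zeros may say nothing about SP100 expression. SP100 was not tested. Its neighbour in the RefSeq table, SP140L, a gene of the same family, was detected in every library.

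TRIM21 encodes a cytosolic antibody receptor with ubiquitin ligase activity. It measured 23.0, 75.0 and 33.9 CPM with DPPA3 mRNA, against 21.7, 27.0 and 23.2 CPM with reagent alone and 17.6, 21.3 and 19.0 CPM in untreated cells. All 3 transfected libraries lay above the untreated ones, but replicate 1 lay inside the reagent alone range. The log2 fold change was 0.87 over reagent alone (SE 0.34) and 1.18 over untreated control (SE 0.34).

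**Figure D2:**
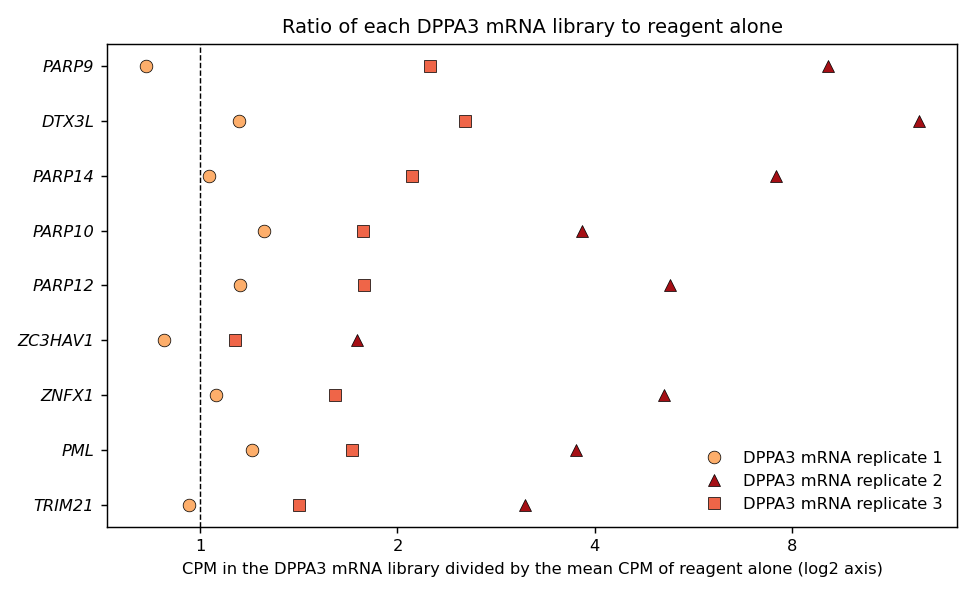
CPM in each of the 3 DPPA3 mRNA libraries divided by the mean CPM of the 3 reagent alone libraries (log2 axis), for the 9 genes with counts. The dashed line marks a ratio of 1. Replicate 2 reaches 12.5 for DTX3L and 1.74 for ZC3HAV1, replicate 3 lies between 1.13 and 2.54, and replicate 1 between 0.826 and 1.25.

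Set against reagent alone, the transfected cells differ by the mRNA and share the reagent. By the edgeR quasi-likelihood test, adjusted by Benjamini-Hochberg over 14874 genes, 0 of the 9 tested members passed the threshold of 0.05, with an adjusted p of 0.9998 for each. Over all genes tested, 0.00672% were called higher, which was DPPA3 alone, and 0% lower. The members were chosen with earlier results of these data known, so the shares that follow are not a test of the group. An unadjusted p under 0.05 in the higher direction was found for 8 of the 9 members, all but ZC3HAV1, and for 1.27% of all genes tested. In the lower direction it was found for 0 members and 0.397% of all genes. For 3 of the 9, PARP10, PARP12 and PML, the lowest transfected library exceeded the highest with reagent alone, as for 4.91% of all genes tested. For 0 members, and 3.99% of all genes, the transfected libraries all lay lower. The median log2 fold change was 1.37 over the 9 members and 0.0027 over all genes tested.

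That result rested strongly on single transfected libraries and on the filter. Without DPPA3 mRNA replicate 2 the members' median log2 fold change was 0.55, and 4 of the 9 members had an unadjusted p under 0.05. The share of all genes under that p was not taken for this fit. The 9 log2 fold changes then ran from 0.0077 for ZC3HAV1 to 0.88 for DTX3L, all above 0. When DPPA3 mRNA replicate 1 was left out the median came to 1.74, and the smallest adjusted p of a member was 0.060, for DTX3L. DESeq2 called 0 members. With no filter on low counts, edgeR called 7 of the 9 members higher, namely all but ZC3HAV1 and TRIM21, with the median unaltered at 1.37. In all, 66 of the 22229 genes then tested were called. The standard errors were smaller there, with a median over the members of 0.25 in place of 0.42.

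Set against untreated control, the transfected cells differ by mRNA and reagent together. This comparison shares the transfected libraries with that against reagent alone, so the fold changes are set side by side and are not separate evidence. Again 0 of the 9 members passed, with adjusted p values of 0.48 for PARP14 to 0.85, while 0.0134% of all genes were called higher and 0% lower. An unadjusted p under 0.05 in the higher direction was found for 8 of 9 members, all but PML, and for 2.09% of all genes. In the lower direction it was found for 0 members and 1.82% of all genes. In PARP12, PARP14 and TRIM21 every transfected library exceeded every untreated one, as in 4.24% of all genes. The reverse held for 0 members and 3.86% of all genes. A fit blocked on replicate number called 7 genes in place of 2 over the table, and still 0 members. The median log2 fold change was 1.40 over the members and 0.0017 over all genes.

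Without DPPA3 mRNA replicate 2 the median against untreated control was 0.56, and 4 members had an unadjusted p under 0.05. Here too the share of all genes was not taken. Without DPPA3 mRNA replicate 1, PARP14 (adjusted p 0.014), PARP9 and DTX3L (adjusted p 0.043 each) were called higher by edgeR. With no filter on low counts 6 members were called higher, PARP9, DTX3L, PARP12, PARP14, TRIM21 and ZNFX1. In all, 69 of 22229 genes were called there. Ribosomal RNA took 1.005% to 1.10% of counts with DPPA3 mRNA, 0.926% to 0.986% with reagent alone and 1.14% to 1.56% in untreated cells. Its part in these differences was not tested.

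**Figure D3:**
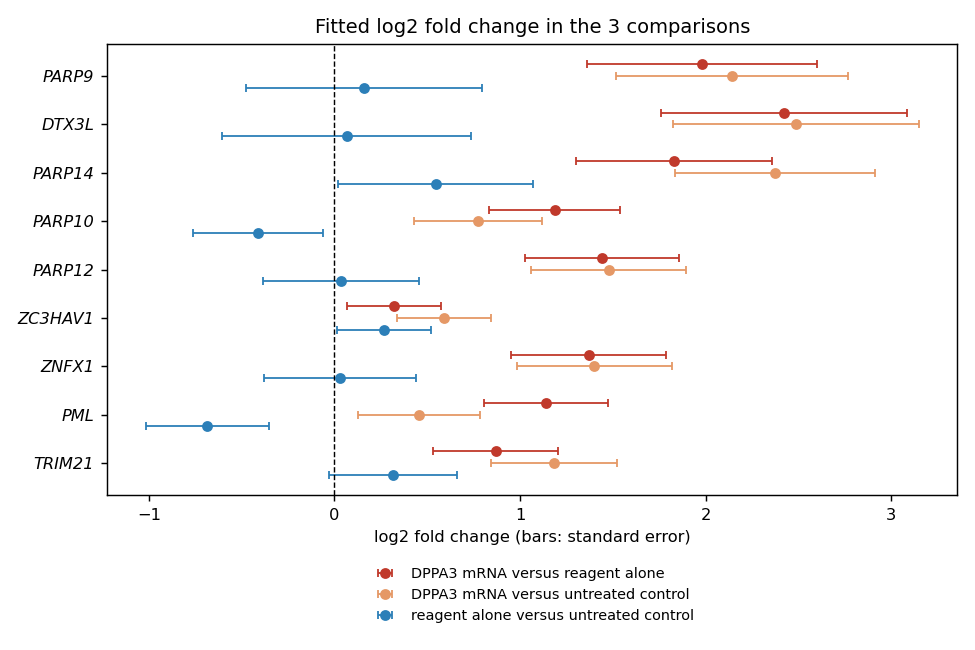
Fitted log2 fold change (points) with its standard error (bars) for the 9 tested genes, for DPPA3 mRNA versus reagent alone, DPPA3 mRNA versus untreated control and reagent alone versus untreated control. Values for DPPA3 mRNA run from 0.32 for ZC3HAV1 to 2.49 for DTX3L, and PML has the lowest value for the reagent, -0.68.

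The reagent alone, set against untreated cells, gave the background of the transfection procedure. Of the 9 members 0 were called, with adjusted p values of 0.47 to 0.98, and the median log2 fold change was 0.065, against -0.0099 over all genes tested. No gene of the 14874 was called by edgeR (0% in either direction), while an unadjusted p under 0.05 was found for 4.23% higher and 5.96% lower and for 0 members. DESeq2 called 2 genes and 0 members here. With reagent alone PML averaged 50.7 ± 9.46 CPM, against 82.0 ± 16.5 CPM without treatment (SD, n = 3), a log2 fold change of -0.68 (SE 0.33, unadjusted p 0.060). It was the 1 member whose reagent alone libraries all lay below the untreated ones, as in 7.21% of all genes. TRIM21 averaged 24.0 ± 2.77 CPM with reagent alone, against 19.3 ± 1.90 CPM without treatment (SD, n = 3), and was the 1 member with all reagent alone libraries above the untreated ones, as in 6.92% of all genes. The mean with reagent alone was above that of untreated cells for 7 members and below it for PARP10 and PML.

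Untreated control replicate 1 was unlike the other 2 untreated libraries for several members. It had the lowest level of the 9 libraries for PARP14 (22.4 CPM), ZC3HAV1 (58.0 CPM), TRIM21 (17.6 CPM) and DTX3L (4.35 CPM), and the highest level among the untreated libraries for PARP10 and PML. Its TMM factor was 0.856, against 1.001 to 1.05 in the other 8 libraries. Without it the median log2 fold change over the members was 1.33 for DPPA3 mRNA and 0.018 for reagent alone, each against untreated control. Without untreated control replicate 2 the value for reagent alone was 0.33.

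The remaining PARP family served as a view of the same enzymes outside the described genes. The lists of related genes used here were drawn up with earlier results of these data known. Summed over PARP9, PARP10, PARP12, PARP14 and ZC3HAV1, the level was 225, 884 and 348 CPM with DPPA3 mRNA, against 216, 223 and 232 CPM with reagent alone and 184, 213 and 211 CPM in untreated cells. Over 11 other PARP family genes the sum was 786, 832 and 804 CPM with DPPA3 mRNA, against 807, 846 and 826 CPM with reagent alone and 737, 819 and 795 CPM in untreated cells. The second sum of the transfected libraries overlapped both other groups, with replicate 2 inside the reagent alone range and above the 3 untreated libraries. Of these 11 genes 0 were called and 0 had an unadjusted p under 0.05 against reagent alone, with a median log2 fold change of -0.027. PARP3, a nuclear enzyme of DNA repair, had the smallest p of them (log2 fold change 0.30, SE 0.20), and TIPARP, a target of the aryl hydrocarbon receptor, measured -0.28 (SE 0.27).

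**Figure D4:**
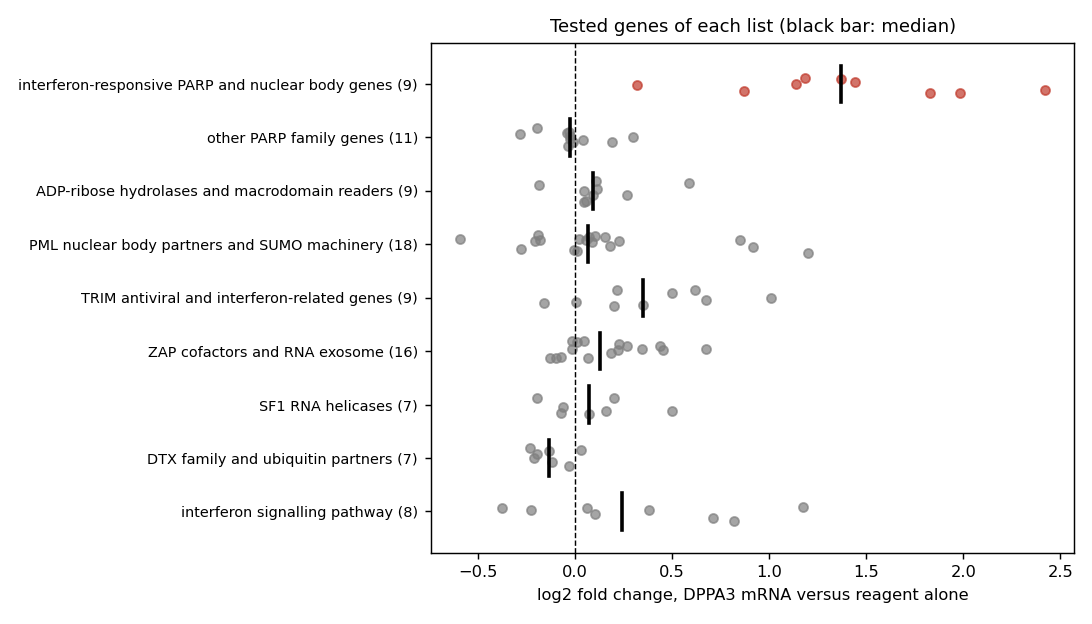
Log2 fold change of DPPA3 mRNA versus reagent alone for each tested gene (points) in the described group and in 8 lists of related genes, with the number of tested genes in brackets and the median as a black bar. The median is 1.37 for the described group and -0.027 for the other PARP family genes.

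Against reagent alone 0 genes of the related lists were called by edgeR, and 4 of the 8 lists held genes with an unadjusted p under 0.05, all of them higher. Over all genes tested, 1.27% had such a p in the higher direction. Among 18 partners of the PML nuclear body and the SUMO pathway, 3 had such a p, all higher, and all 3 belong to the SP100 family. SP140L measured 11.5, 51.5 and 17.1 CPM with DPPA3 mRNA, against 12.7, 10.1 and 12.1 CPM with reagent alone and 7.25, 10.3 and 10.6 CPM in untreated cells (log2 fold change over reagent alone 1.20, SE 0.44). SP140 had a log2 fold change of 0.92 (SE 0.31) and SP110 of 0.85 (SE 0.37). In all 3 genes DPPA3 mRNA replicate 2 was the highest library, and the transfected and reagent alone groups overlapped. The median over the 18 genes was 0.065, and TDP2, a DNA repair enzyme, measured -0.59 (SE 0.28).

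TRIM proteins are a large family of ubiquitin ligases. Of 9 tested TRIM genes other than TRIM21, 2 had an unadjusted p under 0.05 against reagent alone, both higher, as for 1.27% of all genes. The median log2 fold change over the 9 was 0.35. TRIM25, which activates the sensor RIG-I in human cells and is also a cofactor of the ZC3HAV1 protein, measured 80.9, 149 and 89.1 CPM with DPPA3 mRNA, against 73.7, 57.8 and 68.9 CPM with reagent alone and 98.3, 78.9 and 92.3 CPM in untreated cells. The transfected libraries lay above all those with reagent alone, as for 4.91% of all genes tested, but replicates 1 and 3 lay inside the untreated range. TRIM56, another antiviral ubiquitin ligase, had a log2 fold change of 0.50 over reagent alone (SE 0.16). Over untreated control it was 0.35 (SE 0.16), and transfected replicate 1 (181 CPM) lay inside the untreated range of 148 to 196 CPM. Among 16 cofactors of ZC3HAV1 and exosome genes TRIM25 was the 1 gene with an unadjusted p under 0.05. KHNYN, a nuclease cofactor of ZC3HAV1 in human cells, measured 0.22 on the log2 scale (SE 0.15).

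The other lists near the described genes held 0 genes with an unadjusted p under 0.05 against reagent alone. The median log2 fold change was 0.090 over 9 ADP-ribose hydrolases and macrodomain readers, 0.074 over 7 helicases related to ZNFX1 and -0.14 over 7 DTX genes and ubiquitin-conjugating enzymes. MACROD2, a hydrolase that removes ADP-ribose, measured 0.58 (SE 0.62), at low levels of 0.898 to 2.62 CPM. ADPRH, with the smallest p of that list, measured 0.27 (SE 0.27). Of the helicases HELZ had the smallest p and measured -0.20 (SE 0.14). Its transfected libraries all lay below those with reagent alone, as for 3.99% of all genes. MOV10, an antiviral helicase, measured 0.20 (SE 0.16). UBE2D3, with the smallest p of the DTX and ubiquitin list, measured -0.23 (SE 0.20).

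Of 8 genes of the interferon signalling pathway, which drives such genes in other mammals, 3 had an unadjusted p under 0.05 against reagent alone, all higher. IRF9, a DNA-binding partner of STAT2, measured 37.6, 105 and 61.5 CPM with DPPA3 mRNA, against 26.9, 24.8 and 38.0 CPM with reagent alone and 39.2, 26.0 and 30.8 CPM in untreated cells. Replicates 2 and 3 lay above the 6 other libraries, and replicate 1 lay inside both ranges (log2 fold change over reagent alone 1.17, SE 0.32). In IRF1 (log2 fold change 0.82, SE 0.26) and STAT2 (0.38, SE 0.17) all 3 transfected libraries lay above the 6 others. Transfected libraries lay wholly above those with reagent alone in 4.91% of all genes tested, and wholly above the untreated ones in 4.24%. The share of genes with both layouts at once was not taken. Against untreated control, 4 of these 8 genes, 4 of the 18 nuclear body partners and 2 of the 9 TRIM genes had an unadjusted p under 0.05, all higher, and 0 were called.

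The 9 tested genes were then compared with all other genes for the shape of their profile. For each of 11044 other genes with a mean of at least 5 CPM, the root mean square distance was taken between its log2 CPM profile over the 9 libraries, centred on its own mean, and the mean centred profile of the 9 members. The nearest was LOC509283, at a distance of 0.14 log2 units, followed by SP140L (0.18), CGAS (0.277), TRANK1 (0.279) and ADAR (0.284), against a median of 0.79 over all 11044. CGAS encodes the cytosolic DNA sensor and ADAR an enzyme that edits double-stranded RNA. LOC509283 measured 291, 1451 and 494 CPM with DPPA3 mRNA, against 233, 225 and 301 CPM with reagent alone and 226, 260 and 308 CPM in untreated cells. The members' mean profile peaked in DPPA3 mRNA replicate 2. A highest level in that library, seen in all 5 of these genes, follows from how they were picked. CGAS measured 8.14 and 8.23 CPM in transfected replicates 1 and 3, against up to 8.35 CPM with reagent alone. Among the members, ZNFX1 (0.087) and PARP12 (0.13) lay nearest to the shared profile and DTX3L (0.50) and ZC3HAV1 (0.48) farthest from it. Each member is itself part of that profile, so these distances do not compare directly with those of the other genes.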

How the data were processed

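Per the labels, RNA was isolated with TRIzol and DNase before library preparation with an IDT xGen kit. The values are raw counts of reads per gene symbol, as the authors deposited them. Trimmomatic, HISAT2, HTSeq and edgeR appear in the submitters' processing notes, while versions, the annotation and the genome build were not given in the sources used here. No coordinates are therefore printed. Of 30641 symbols, 24552 matched the RefSeq gene table of ARS-UCD2.0, used for names and neighbouring genes. It holds no transcript lengths or sequences, so the planned comparison of levels between genes per length was not made.

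After filterByExpr, 14874 genes were scaled with TMM and fitted over all 9 libraries, by group, with edgeR 4.0.16 (glmQLFit, glmQLFTest) in R 4.3.3. Calls required an adjusted p (Benjamini-Hochberg, all tested genes) under 0.05. Each standard error is the absolute log2 fold change over the root of F. The scripts were tested on simulated data.

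The 10 members and the 8 lists of related genes were chosen with earlier results of these data known. The text names all members, DPPA3, up to 4 genes per list with the smallest p against reagent alone, and the 5 nearest profiles. The values of 1 such list gene are not reported here. Marker and neighbouring genes are named beside them. Replicates differed beyond sampling noise (lowest chi-square per degree of freedom 14.4). For DPPA3 mRNA with untreated control, libraries of equal number deviated together from their group means (correlations 0.34, 0.32 and 0.12, each over 0.1). The labels do not state such pairs, so the main fit was by group only in every comparison. A block on replicate number was fitted as an alternative. Alternatives were DESeq2 1.42.0 size factors, the DESeq2 Wald test, no filter, only the 2 groups compared, a replicate block, DPPA3 left out, and each library left out in turn.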

Additional observations from a re-analysis of the deposited data

How the results depend on the processing

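The members' median log2 fold change stayed above 0 in all 15 alternatives of each comparison. With single libraries left out it spanned 0.55 to 1.74 for DPPA3 mRNA against reagent alone, 0.56 to 1.78 against untreated control and 0.018 to 0.33 for reagent alone. In the same 3 comparisons, members with an unadjusted p under 0.05 then numbered 4 to 8, 4 to 9 and 0 to 1, and members called 0 to 0, 0 to 3 and 0 to 0. The calls of 3 came without DPPA3 mRNA replicate 1. The share of all genes with an unadjusted p under 0.05 was not taken for these fits. With no filter, 22229 genes were tested, 7, 6 and 0 members and 66, 69 and 18 genes in all were called, and the prior degrees of freedom were 134.8 in place of 7.28. The DESeq2 Wald test called 9, 10 and 2 genes and 0 members. With DPPA3 left out of the table, 0 genes were called in each comparison. Single libraries left out moved the count of genes called over 1 to 20, 1 to 26 and 0 to 1, the highest of the first 2 ranges without DPPA3 mRNA replicate 1. Causes of these shifts beyond the smaller or larger set of genes and samples were not tested.

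Under the replicate block, calls over the table were 2 against reagent alone and 7 against untreated control, with 0 members, and the members' medians were 1.14 and 1.16. The block changed no member's call. Equal numbers correlated at 0.14, 0.12 and 0.086 between DPPA3 mRNA and reagent alone, and at 0.15, 0.14 and 0.093 between reagent alone and untreated control, so 1 pair of each lay under 0.1. Every library among the 6 of a comparison still correlated best with its own number, which comes from the data rather than the design.

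Some log2 fold changes turned in sign when a library was left out. PML against untreated control spanned -0.15 to 0.76. For reagent alone, DTX3L spanned -0.16 to 0.39 (also -0.091), PARP12 -0.026 to 0.13 (also -0.0015) and ZNFX1 -0.088 to 0.12 (also -0.034). Depth limits PARP9 and DTX3L most, in reagent alone replicate 1.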
